A study of Mus musculus with 2 samples.

Results

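The 10 neuronal splicing regulators described here are RNA-binding proteins that choose which exons enter a messenger RNA: Rbfox1, Rbfox2, Rbfox3, Nova1, Nova2, Ptbp1, Ptbp2, Elavl3, Elavl4 and Srrm4. They were taken by name, as 10 of the 55536 gene rows, with all of their 89 annotated transcripts. RNA with poly(A) tails was sequenced from the hippocampus of adult C57BL/6 mice (strain B6NCrl) aged 6 months. The hippocampus serves the formation of memories and is rich in pyramidal and granule neurons. There was 1 group of 2 libraries, labelled biological replicates 1 and 2 and each begun from 20 ng of RNA, with no treatment, mutant or second age. The labels give both libraries the same donor identifier and do not say whether the tissue came from separate animals, so the spread between the libraries may be partly technical.

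Splicing regulators of this kind bind short motifs in and around exons and raise or lower the use of those exons according to where they bind. Rbfox proteins recognise UGCAUG, Nova proteins recognise clusters of YCAY, Ptbp proteins bind pyrimidine-rich stretches and mostly repress exons, and the Elavl proteins (the Hu family) bind U-rich and AU-rich RNA. Srrm4, also called nSR100, promotes the inclusion of microexons, the very short exons that many neuronal proteins carry. During neuronal differentiation Ptbp1 is switched off and its paralog Ptbp2 appears, while the Rbfox, Nova, Elavl and Srrm4 genes are used in mature neurons.

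The libraries held 38921671 and 39499357 expected reads for replicates 1 and 2, and 16720 genes had at least 10 expected reads in both. The level of a gene is given in TPM, an abundance of transcripts scaled for their length and to the same total in each library. The tables came from a pair of quantification programs that the labels and headers used here do not name: the first gave gene and transcript tables, and the second gave transcript tables only, whose TPM was summed per gene. Neuron markers summed to 4454 TPM in replicate 1 and 5104 TPM in replicate 2, and all 10 were above 1 TPM in both. Markers of the choroid plexus, the epithelium that makes cerebrospinal fluid, stood apart, with 5 of 5 higher in replicate 1, where they summed to 15229 TPM against 127 TPM in replicate 2. Other markers summed to 1931 TPM in replicate 1 and 1910 TPM in replicate 2 for astrocytes, and in the same order to 3512 and 3909 for oligodendrocytes, 505 and 531 for microglia, 155 and 195 for endothelium, 109 and 80.9 for ependyma, 80.2 and 93.1 for meningeal fibroblasts and 9.08 and 6.82 for newborn neurons. Among the 4 meningeal markers, Slc6a13 had 6.36 TPM in replicate 1 and 14.94 TPM in replicate 2. Its log2 ratio of replicate 1 over replicate 2 was -1.29. By the library comparison described below, 1 of the 4, this gene, was called, beside 2.41% of all genes tested. A text label calls the animals male and the sex field reads as not collected. The Y-linked genes Ddx3y, Eif2s3y, Uty and Kdm5d had 1 read in all in replicate 1 and 0 in replicate 2, where 3 reads would be 0.0771 and 0.0760 CPM, the reads scaled to library size. Xist, the RNA of the inactive X chromosome, had 694 and 611 reads in replicates 1 and 2.

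All 10 regulators were detected above 1 TPM in both libraries, over a range of 1.93 to 220.6 TPM. Their median level was 18.8 TPM, beside a median of 10.8 TPM over the 14356 genes with a mean of at least 1 TPM, and 7 of the 10 lay above that median. Rbfox1 and Rbfox3 together made up 70.8% ± 1.2 (SD, n = 2) of the summed TPM of the 10 genes. In bulk tissue, fewer cells of a type and less RNA per cell cannot be told apart, so these are levels of the whole hippocampus and not of neurons alone.

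**Figure D1:**
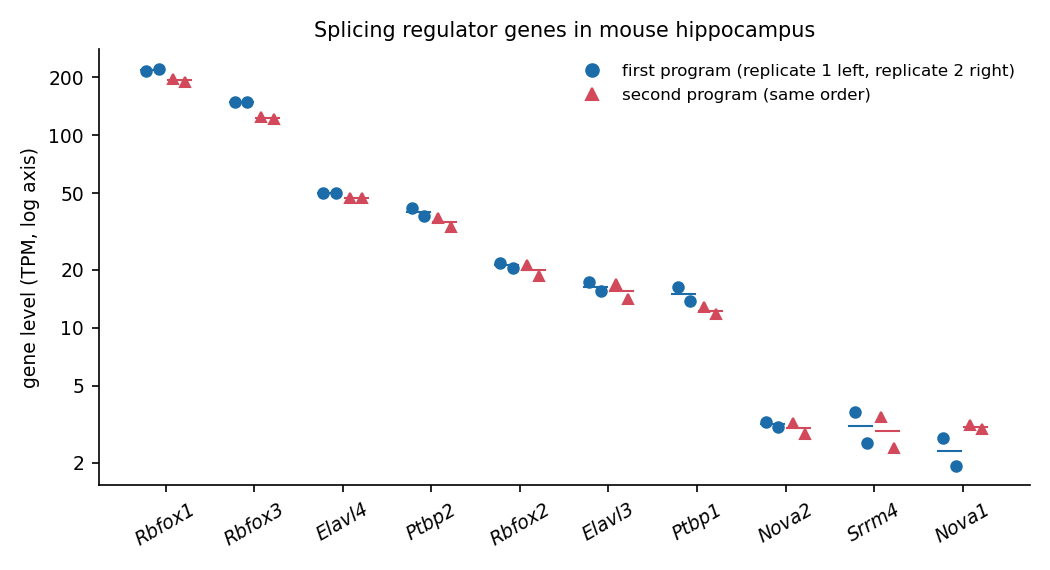
Gene level in TPM on a log axis for each of the 10 regulators, ordered by their mean in the first program. Circles are the first program and triangles the second, each with replicate 1 on the left and replicate 2 on the right, and short lines are means of 2 libraries. Rbfox1 and Rbfox3 lie above 100 TPM in every table, and Nova2, Srrm4 and Nova1 lie below 4 TPM.

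The Rbfox family was the most abundant of the families, with a summed level of 387.8 ± 2.2 TPM (SD, n = 2). Rbfox1, the neuronal and muscle member (chr16:5885355-7411526, plus strand, mm10), had 215.7 TPM in replicate 1 and 220.6 TPM in replicate 2. Rbfox3, which encodes the neuronal nuclear antigen NeuN (chr11:118489762-118911597, minus strand), had 148.7 and 148.4 TPM in replicates 1 and 2. Rbfox2, the broadly expressed member (chr15:77078990-77307004, minus strand), had 21.9 and 20.4 TPM in replicates 1 and 2. Of the summed Rbfox TPM, Rbfox1 held 56.3% ± 0.6, Rbfox3 held 38.3% ± 0.3 and Rbfox2 held 5.45% ± 0.30 (SD, n = 2 each), and the second program put the order the same way, with 57.4%, 36.6% and 5.93%.

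The Elavl genes followed. Elavl4, which encodes HuD (chr4:110203722-110351909, minus strand), had 50.2 and 50.4 TPM in replicates 1 and 2. Elavl3, which encodes HuC (chr9:22015005-22052023, minus strand), had 17.3 and 15.5 TPM. The ratio of Elavl4 to Elavl3 was 3.08 ± 0.25 (SD, n = 2) by the first program and 3.06 ± 0.36 by the second. The ubiquitous paralog Elavl1, which encodes HuR, was higher than either at 62.9 ± 10.3 TPM, and Elavl2 was lower at 7.17 ± 0.28 TPM (SD, n = 2).

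Ptbp2, the neural polypyrimidine tract binding protein (chr3:119718742-119784466, minus strand), had 41.8 and 38.3 TPM in replicates 1 and 2. Its paralog Ptbp1, which most non-neuronal cells use (chr10:79854427-79864771, plus strand), had 16.3 and 13.9 TPM. The libraries of the pair did not overlap, and Ptbp2 stood 2.67 ± 0.13 times above Ptbp1 (SD, n = 2) by the first program and 2.87 ± 0.05 times by the second. Ptbp3, a further paralog, had 4.68 ± 0.88 TPM. The expected count of Ptbp1 was not whole, so some of its reads were shared with other loci. Ptbp1 also overlaps 251 exonic bases of Plppr3 on the opposite strand, a gene with 1399 and 1606 expected reads in replicates 1 and 2 against 1069 and 972 for Ptbp1. The sources used here do not say whether counting used strand, so the reads of that stretch may belong to either gene.

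Nova1, Nova2 and Srrm4 had the lowest levels. Nova2 (chr7:18925888-18965319, plus strand) had 3.25 and 3.06 TPM in replicates 1 and 2. Nova1 (chr12:46694517-46818929, minus strand) had 2.67 and 1.93 TPM, and Srrm4 (chr5:116439275-116591817, minus strand) had 3.65 and 2.52 TPM. Both Nova genes encode the antigens of a paraneoplastic movement disorder of humans. Srrm3, the paralog that also drives microexon inclusion, had 13.2 ± 0.2 TPM (SD, n = 2), above both libraries of Srrm4. Nova2 shares 2652 exonic bases with the opposite-strand noncoding gene Gm26821, which had 0 reads, and the overlaps of Nova1, Srrm4 and Elavl3 with other genes involved genes of at most 4 reads in either library.

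Neighbours in the order of levels were set against their spread. The libraries did not overlap between Rbfox1, Rbfox3, Elavl4, Ptbp2, Rbfox2 and Elavl3, taken in that order, nor between Ptbp1 and Nova2. Elavl3 and Ptbp1 overlapped in the first program, where their means differed by 1.34 TPM, and did not overlap in the second. Nova2 overlapped with Srrm4, and Srrm4 with Nova1, in both programs. The second program gave these genes the order Nova1, Nova2, Srrm4. The upper part of the order also depends on length. By expected reads per kilobase of the longest annotated transcript, Rbfox1 (2688 and 2844 in replicates 1 and 2) still stood above Rbfox3 (2432 and 2465), but Ptbp2 (853 and 780) stood above Elavl4 (634 and 668), and Elavl3 (449 and 433) stood above Rbfox2 (339 and 319).

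The levels of each regulator in the libraries were compared with an exact binomial test, two-sided, whose p-values were adjusted by Benjamini-Hochberg over 14080 genes. A call needed a ratio of 2-fold or more in either direction, which is a log2 ratio of 1, and an adjusted p under 0.05. None of the 10 regulators was called, beside 2.41% of all genes tested. At any size, 4 of 10 had an adjusted p under 0.05, beside 47.1% of all genes, and 6 had an unadjusted p under 0.05, beside 52.5% of all genes. The count at an adjusted p under 0.05 was 6 with library totals in place of TMM scaling and 7 with the second program's counts. No share of all genes was taken under these settings, so these counts have no background beside them. The test covers counting error only and says nothing of a condition. The exactTest function of edgeR with a preset dispersion of 0.01 also called 0 regulators, with 0 at an unadjusted p under 0.05.

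**Figure D2:**
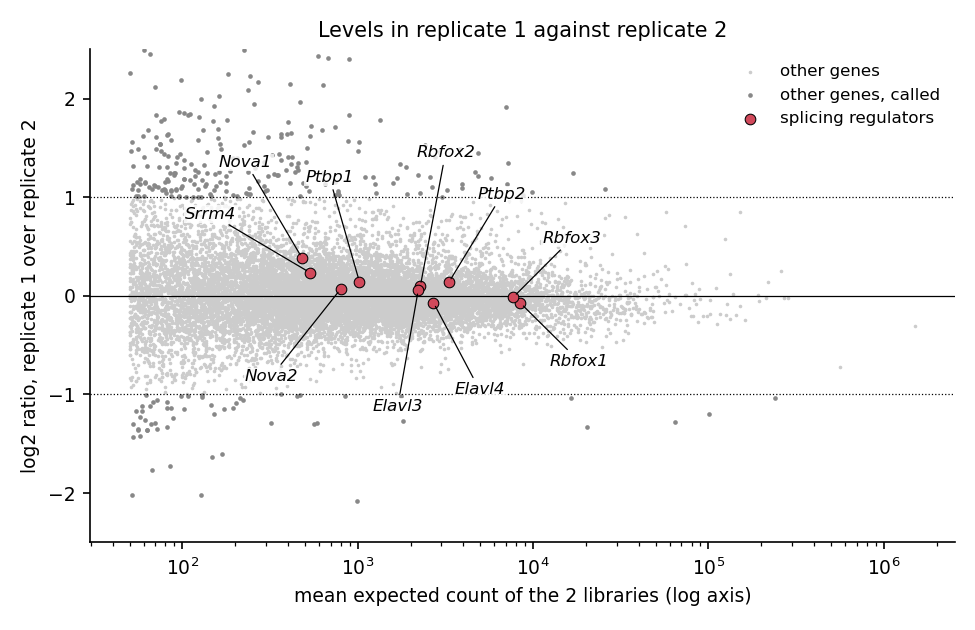
Log2 ratio of replicate 1 over replicate 2 against the mean expected count on a log axis, for all genes tested, with the 10 regulators as red points. Dotted lines mark a log2 ratio of 1 in either direction, and 60 genes lie beyond the axis limit of 2.5. All 10 regulators lie inside the dotted lines, with Nova1 farthest from 0.

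Nova1 had the largest ratio of the 10, with 544 expected reads in replicate 1 and 420 in replicate 2. Its log2 ratio was 0.38 (adjusted p = 0.000188 by the exact binomial test), a size that 17.4% of all genes tested exceeded. Srrm4 had 577 and 493 reads in replicates 1 and 2, a log2 ratio of 0.23 (adjusted p = 0.0204, same exact test). Ptbp2 had 3453 and 3156 reads, a log2 ratio of 0.14 (adjusted p = 0.000425, same exact test). Rbfox1 went the other way, with 8227 and 8704 reads in replicates 1 and 2 and a log2 ratio of -0.07 (adjusted p = 0.00268, same exact test). After scaling, 7 of the 10 had more reads in replicate 1 and 3 had fewer. The median absolute log2 ratio was 0.09 over the 10 regulators and 0.16 over all genes tested. The choroid plexus markers differed between the same libraries by a median log2 ratio of 5.40, and their part in the small differences of the regulators was not tested.

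Lists of genes that act beside the regulators gave the following levels. Of 13 other neural splicing factors, the Mbnl, Celf, Khdrbs and Qk genes, 12 were above 1 TPM in both libraries, with a median of 41.7 TPM. Celf4 was the highest at 252.6 ± 26.4 TPM, above Rbfox1, and Mbnl3 was the lowest at 0.20 and 0.02 TPM in replicates 1 and 2. None of the 12 tested was called between the libraries, although Mbnl1, a splicing factor sequestered in myotonic dystrophy, came close to the threshold with 11184 and 5776 reads in replicates 1 and 2 and a log2 ratio of 0.96. All 11 partners were above 1 TPM in both libraries, with a median of 40.2 TPM. Matr3, a nuclear matrix protein that binds with Ptbp1, was the highest partner at 283.0 ± 13.5 TPM, and Raver2, a Ptbp co-repressor, the lowest at 3.20 ± 0.06 TPM (SD, n = 2 each). None of the 11 partners, 4 paralogs or 15 target genes was called between the libraries either. Over all genes tested, 2.41% were called.

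Gene levels were set side by side between the programs. None of the 10 regulators differed by more than a log2 difference of 1 in the same direction in both libraries, beside 8.04% of 15371 genes. Nova1 was the only one of the 10 lower in the first program, with log2 differences of -0.23 in replicate 1 and -0.60 in replicate 2. The other 9 were higher in the first program in both libraries. Their median log2 difference with Nova1 included was 0.09, beside 0.23 over all genes compared, on the log2(TPM + 0.1) scale. As means of the libraries, the largest in size was -0.42 for Nova1, and the largest positive one was 0.29 for Ptbp1.

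Of the 89 annotated transcripts of the regulators, 34 were at or above 1 TPM in all 4 transcript tables and 14 were listed at 0 in all 4. A share of at least 5% of the gene's TPM in both libraries of either program was also met by 34 transcripts. The transcript with the largest share was the same in both programs for all 9 regulators where it could be compared, beside 5.1% of 11594 genes in which it differed between the programs in both libraries. It was also the same in both libraries for these 9, beside 15.7% of the same genes in which it differed between the libraries in either program. Nova2 was left out because its shares are tied. Its transcripts Nova2-201 and Nova2-202 have 1 and the same sequence of 8372 bases and differ only in the annotated start codon, with 556 and 492 amino acids, so each was given 50% in every table. The authors' interval for Nova2-201 ran between 0.000112 and 2.94 TPM in replicate 1.

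**Figure D3:**
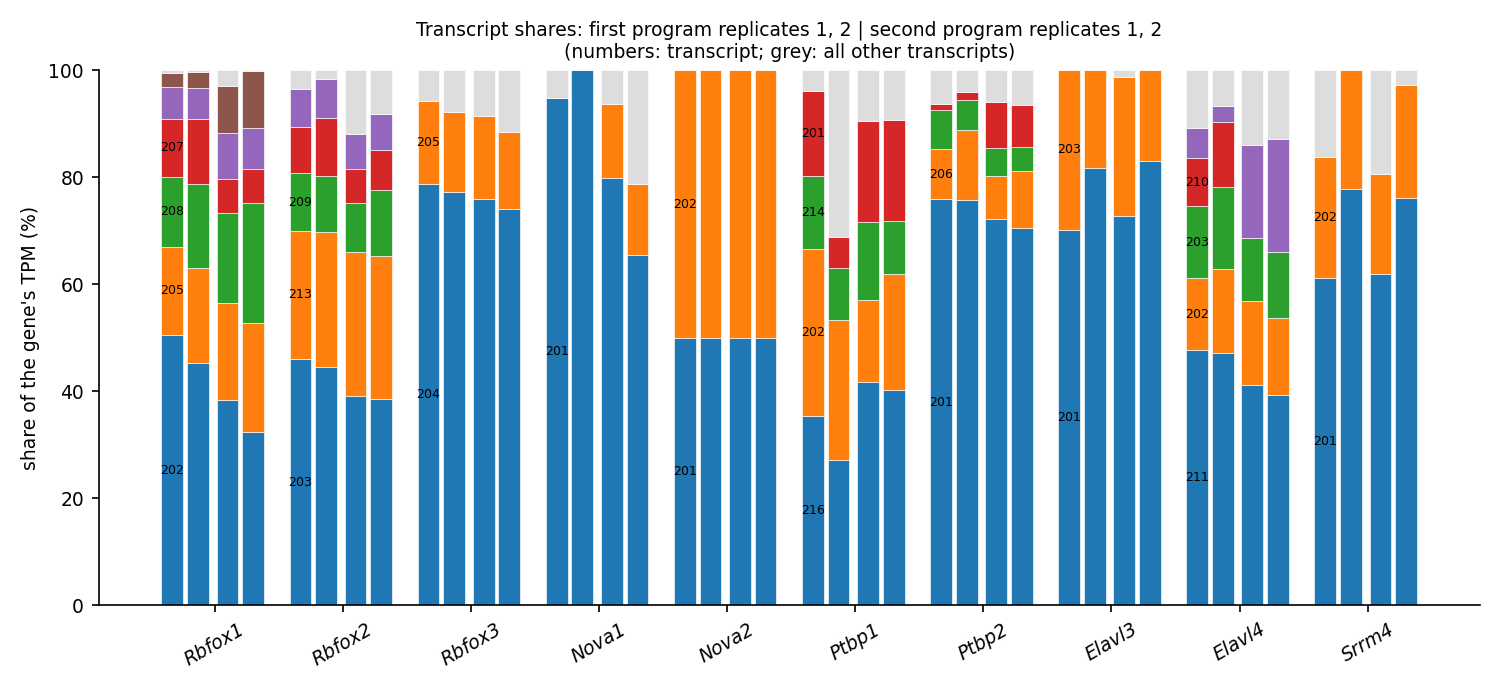
Share of each gene's TPM by transcript, in percent, with a bar for replicates 1 and 2 of the first program and then replicates 1 and 2 of the second. Colours are the transcripts with at least 5% in both libraries of either program, numbered on the first bar, and grey is the rest. Rbfox3-204, Ptbp2-201 and Nova1-201 fill most of their bars, Nova2 is split evenly, and Elavl4-211 leads its gene.

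Rbfox3 was led by Rbfox3-204, which encodes 313 amino acids and held 78.7% and 77.3% of the gene's TPM in replicates 1 and 2. Rbfox3-205, which encodes 360 amino acids, held 15.5% and 14.9%. The forms part at an alternative acceptor: the longer exon begins 141 bases earlier, at chr11:118496391-118496531 on the minus strand. Transcripts with the segment made up 20.1% ± 0.2 of the compared TPM by the first program and 21.9% ± 0.2 by the second (SD, n = 2). Over expected reads, where long transcripts weigh more, the segment reached 34.6%. The segment is shown because its presence or absence sets the 313 and 360 residue forms of NeuN apart. Its length is a multiple of 3, and all of it is in capitals.
Rbfox3 141-base segment: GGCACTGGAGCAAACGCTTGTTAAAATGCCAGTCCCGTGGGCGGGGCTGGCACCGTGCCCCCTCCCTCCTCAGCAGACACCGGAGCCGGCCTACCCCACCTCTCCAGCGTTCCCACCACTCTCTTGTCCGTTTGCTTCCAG

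Rbfox1 and Rbfox2 each choose between a 40-base and a 43-base exon in the region that encodes the C-terminal part of the protein. These are known as the brain and the muscle exon. The exons are shown in capitals with 15 bases of the neighbouring exons in lower case, from the GENCODE M21 transcripts of mm10, sense strand.
Rbfox1 40-base exon: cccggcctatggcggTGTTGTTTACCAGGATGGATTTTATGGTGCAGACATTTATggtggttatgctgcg
Rbfox2 40-base exon: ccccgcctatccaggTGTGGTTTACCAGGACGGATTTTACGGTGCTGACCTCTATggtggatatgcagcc
Rbfox1 43-base exon: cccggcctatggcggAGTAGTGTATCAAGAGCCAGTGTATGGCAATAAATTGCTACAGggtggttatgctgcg
Rbfox2 43-base exon: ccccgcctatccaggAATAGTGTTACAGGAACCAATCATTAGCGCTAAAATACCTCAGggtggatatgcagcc
The 40-base exons lie at chr16:7363865-7363904 (plus strand) and chr15:77094451-77094490 (minus strand), and the 43-base exons at chr16:7369801-7369843 and chr15:77091812-77091854. Rbfox1 and Rbfox2 are identical at 34 of 40 positions of the 40-base exon (85%) and at 27 of 43 of the 43-base exon (62.8%). Both lengths leave a remainder of 1 when divided by 3, so a transcript with either exon has the same frame after it and a transcript with neither does not.

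The 40-base exon dominated in both genes. In Rbfox1, transcripts with the 40-base exon held 96.9% of the compared TPM in replicate 1 and 96.3% in replicate 2 by the first program, and 86.0% and 86.6% by the second. The 43-base exon held the remainder, 3.39% ± 0.42 by the first program and 13.7% ± 0.4 by the second (SD, n = 2). The programs differed in this minor form by more than the libraries did. None of the compared Rbfox1 transcripts had both exons or neither. In Rbfox2, transcripts with the 40-base exon held 78.4% and 74.2% in replicates 1 and 2 by the first program and 77.8% and 76.0% by the second. Those with the 43-base exon held 10.5% ± 0.8 and 12.5% ± 0.8 by the first and second programs, and those with neither, led by a 435-residue form, held 13.2% ± 2.1 and 10.6% ± 0.5 (SD, n = 2). Over expected reads the Rbfox2 43-base exon fell to 2.19% and the 40-base exon reached 93.2%. Rbfox2-203, annotated over 6573 bases, carries the 40-base exon and held 83.3% of the gene's expected reads.

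Rbfox1 has a further 54-base coding exon at chr16:7306408-7306461, which 88.4% ± 0.9 of the compared TPM included by the first program and 93.6% ± 0.3 by the second (SD, n = 2). Only Rbfox1-207, which encodes 358 amino acids, skips it. Its main coding length was 396 amino acids, with 82.6% ± 1.6 of the TPM of complete coding transcripts. These 396-residue transcripts start from different first exons. Rbfox1-202 held 50.5% and 45.4% of the gene's TPM in replicates 1 and 2 by the first program and 38.4% and 32.5% by the second, and Rbfox1-208 held 13% and 15.6%. Rbfox1-202 is annotated over 1191 bases, its coding sequence with no long ends, and the TPM of a transcript is divided by its length. Rbfox1-205, whose coding sequence is annotated as incomplete, held 17.1% ± 0.8 of the gene's TPM by the first program and 19.2% ± 1.5 by the second. Rbfox1-201, the 396-residue form with the longest model at 3061 bases, held 5.88% ± 0.16 and 8.09% ± 0.66. Rbfox1-203, a 417-residue form with the 43-base exon, held 2.79% ± 0.32 and 9.72% ± 1.31 (SD, n = 2).

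Rbfox2 has a 93-base exon inside the RNA recognition motif, at chr15:77105577-77105669. It was included in 92.6% and 92.7% of the compared TPM in replicates 1 and 2 by the first program and in 92.6% and 92.3% by the second. Over expected reads, inclusion of the 93-base exon reached 98.2%. The transcripts without it are known from other work to encode a form that binds RNA poorly. Rbfox2-203, a 381-residue form, led the gene with 46.1% and 44.6% of its TPM in replicates 1 and 2 by the first program and 39.1% and 38.5% by the second. It was followed by the incomplete Rbfox2-213 with 24.5% ± 0.9, the 377-residue Rbfox2-209 with 10.7% ± 0.3, the 435-residue Rbfox2-201 with 9.72% ± 1.71 and Rbfox2-207, which lacks the 93-base exon, with 7.20% ± 0.01 by the first program (SD, n = 2). The 93-base exon of Rbfox3 was included at 100% in both libraries by the first program and at 98.6% and 98.2% by the second.

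Ptbp1 and Ptbp2 share a 34-base exon whose skipping shifts the frame. It lies at chr10:79862014-79862047 (plus strand) in Ptbp1 and at chr3:119724612-119724645 (minus strand) in Ptbp2. It is the exon through which Ptbp1 limits its own level and that of Ptbp2, since the skipped transcript is degraded by nonsense-mediated decay. The exons are in capitals with 15 bases of the neighbouring exons in lower case.
Ptbp1 34-base exon: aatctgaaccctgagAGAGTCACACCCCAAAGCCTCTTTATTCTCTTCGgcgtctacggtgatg
Ptbp2 34-base exon: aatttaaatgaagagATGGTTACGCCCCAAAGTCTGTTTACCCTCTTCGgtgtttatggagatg
The exons match at 26 of 34 positions (76.5%). In Ptbp2, the exon was included in 90.5% and 86.5% of the compared TPM in replicates 1 and 2 by the first program, and in 91.1% and 88.3% by the second. In Ptbp1, it was included in 80.8% and 86.7% by the first program and in 77.0% and 76.7% by the second. Inclusion was higher in Ptbp2 than in Ptbp1 in each of the second program's tables, while by the first program the ranges met, with 86.5% as the lowest value of Ptbp2 and 86.7% as the highest of Ptbp1. Transcripts degraded in the cell are under-represented in RNA, so these shares describe steady levels and not the rate of skipping. The skipping transcript Ptbp2-206 held 9.3% and 13.2% of the gene's TPM in replicates 1 and 2 by the first program. It held only 1.81% ± 0.49 of the gene's expected reads (SD, n = 2). Over expected reads, mean inclusion of the 34-base exon reached 90.8% in Ptbp1 and 98.2% in Ptbp2.

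Ptbp1 also has a 78-base exon between RNA recognition motifs, at chr10:79860117-79860194. Its presence gives the long form of the protein, which in other work was the stronger repressor of some exons. It was included in 43% and 38.8% of the compared TPM in replicates 1 and 2 by the first program and in 54.3% and 49.9% by the second. It is shown in capitals because the transcripts with and without it were of similar level.
Ptbp1 78-base exon: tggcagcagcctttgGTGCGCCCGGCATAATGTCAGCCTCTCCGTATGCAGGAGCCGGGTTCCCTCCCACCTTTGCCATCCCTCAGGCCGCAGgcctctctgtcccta
By the first program, the coding lengths of Ptbp1 had the largest SD between the libraries among the regulators. The 555-residue form held 53.3% and 37.3% in replicates 1 and 2 by the first program, out of the TPM of complete coding transcripts, and 69.1% and 65.1% by the second. The 529-residue form Ptbp1-206 was listed at 0 in replicate 1 and held 27% in replicate 2 by the first program, with 5.47% and 4.35e-08% by the second. By TPM of the whole gene, Ptbp1-216 with the 78-base exon held 31.3% ± 5.8, Ptbp1-202 without it 28.6% ± 3.5, the retained-intron transcript Ptbp1-214 11.7% ± 2.8 and Ptbp1-201, annotated for nonsense-mediated decay, 10.8% ± 7.1 by the first program (SD, n = 2). Ptbp2 varied less, with 92.2% ± 1.3 in its 532-residue form by the first program and 83.6% ± 0.04 by the second (SD, n = 2). Ptbp2-201, which carries it, held 75.9% and 75.7% of the gene's TPM in replicates 1 and 2 by the first program. The short models Ptbp2-202 and Ptbp2-210, of 465 and 389 bases, held 6.45% ± 1.34 and 1.36% ± 0.33 by the first program and 4.86% ± 0.60 and 8.25% ± 0.41 by the second.

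**Figure D4:**
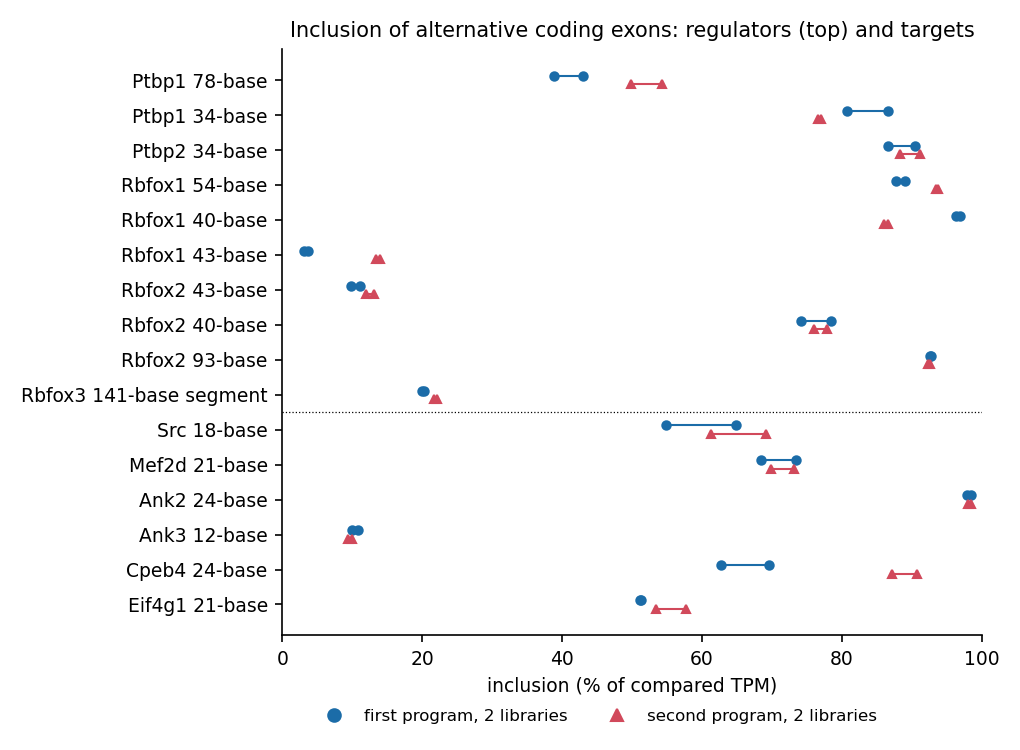
Inclusion of alternative coding exons in percent of the TPM of the transcripts compared, for the regulators above the dotted line and for microexons of target genes below it. Circles are the first program and triangles the second, with a line joining the 2 libraries. The 40-base exons of Rbfox1 and Rbfox2 lie above 70% and their 43-base exons below 15% in every table.

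The Elavl genes differed in how far their transcripts could be told apart. Elavl3-201, which encodes 367 amino acids, held 70.2% and 81.8% of the gene's TPM in replicates 1 and 2 by the first program, and 72.8% and 83.1% by the second. Elavl3-203, which encodes 250 amino acids, held 29.8% and 18.2% by the first program and 25.8% and 16.9% by the second. The short form was thus higher in replicate 1 in both programs, with 5.15 and 2.82 TPM by the first. The authors' intervals of these levels ran from 4.46 to 5.48 TPM in replicate 1 and from 2.35 to 3.13 TPM in replicate 2. These intervals do not overlap, although their level of confidence is not stated. How often the intervals of other transcripts fail to overlap between the libraries was not counted.

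In Elavl4 the transcript with the most TPM was Elavl4-211, annotated as a processed transcript of 869 bases with no coding sequence. It held 47.7% and 47.1% of the gene's TPM in replicates 1 and 2 by the first program and 41.2% and 39.4% by the second, but only 19.6% ± 0.4 of its expected reads (SD, n = 2). Over expected reads, the complete coding Elavl4-202 and Elavl4-203 led instead, with 32.5% ± 3.1 and 32.8% ± 2.3 by the first program (SD, n = 2). By TPM, complete coding transcripts held 34.2% ± 1.0 of Elavl4, the lowest of the 10 genes. Among these, the 380-residue form had 42.8% ± 3.7 and the 385-residue form 41.8% ± 2.6 by the first program, a difference within their spread. By the second program they had 48.1% ± 3.2 and 38.9% ± 1.1, and their libraries did not overlap (SD, n = 2). These forms of HuD differ at the N-terminus. As single transcripts, Elavl4-202 held 14.6% ± 1.7 and Elavl4-203 held 14.3% ± 1.3 of the gene's TPM by the first program (SD, n = 2). Elavl4-210 held 9.0% and 12.1% by the first program and was listed at 0 by the second, while Elavl4-208 held 5.7% and 3.0% by the first program and 17.4% and 21% by the second.

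**Figure D5:**
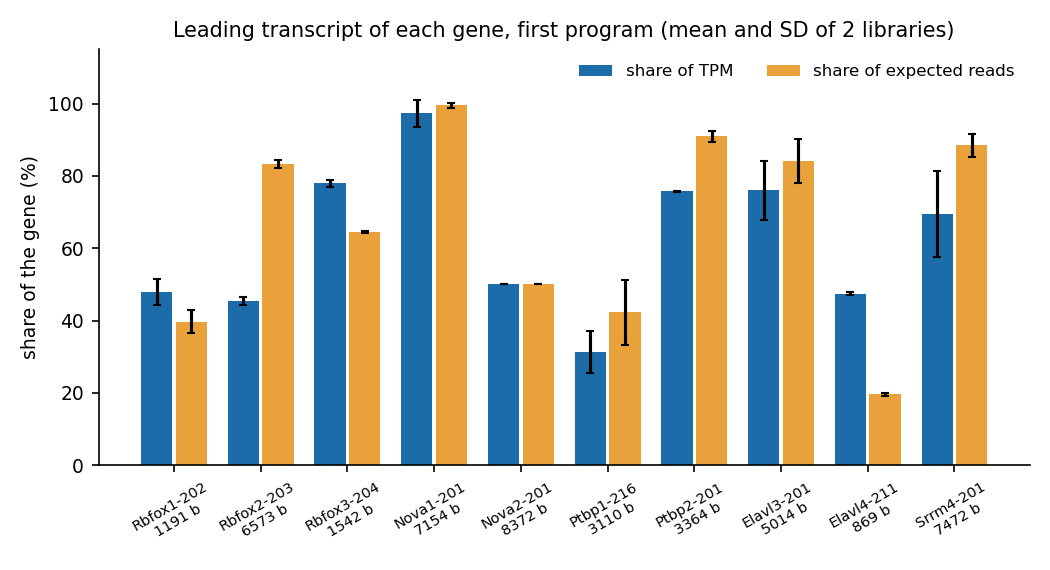
Share of the leading transcript of each gene in the gene's TPM and in its expected reads, in percent, from the first program. Bars are means and error bars SD of 2 libraries, and the annotated length in bases (b) stands under each name. Elavl4-211 drops from 47.4% of TPM to 19.6% of reads, and Rbfox2-203 moves from 45.4% to 83.3%.

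Nova1-201, which encodes 507 amino acids, was the one complete coding transcript of Nova1, with 94.7% and 100% of its TPM in replicates 1 and 2 by the first program and 79.8% and 65.4% by the second. The second program gave 13.9% and 13.4% to Nova1-205, a processed transcript of 571 bases that the first program listed at 0. Srrm4-201, which encodes 608 amino acids, held 61.1% and 77.8% of Srrm4 TPM in replicates 1 and 2 by the first program and 62% and 76.1% by the second. Srrm4-202, which encodes 120 amino acids, held 22.7% and 22.2% by the first program. A transcript annotated for nonsense-mediated decay, Srrm4-205, held 15.6% in replicate 1 by the first program and 18.4% by the second, and was at 0 in replicate 2 in both. At 577 and 493 reads for the whole gene, this rests on few reads.

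In all, 20 coding exons of the regulators were skipped by at least 1 annotated transcript. Of these, 9 exons in 4 genes had an inclusion between 5% and 95% in both libraries of at least 1 program, namely those of Rbfox1, Rbfox2, Ptbp1 and Ptbp2 given above. Among the other 11 the lowest inclusion in any table was 92%, and the 39-base exon of Elavl4 had 97.2% and 96.3% in replicates 1 and 2 by the first program.

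The transcripts of 15 known target genes of these regulators were read in the same tables, and 10 had at least 2 complete coding lengths with 5% or more in every table. Microexons of at most 27 bases passed a minimum of 5 TPM in 6 of the 15 genes. The 4 with intermediate inclusion that are known targets of the regulators are shown in capitals with 15 bases on each side in lower case. They were chosen after their values were seen.
Src 18-base microexon: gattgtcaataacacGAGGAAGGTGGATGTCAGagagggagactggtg
Mef2d 21-base microexon: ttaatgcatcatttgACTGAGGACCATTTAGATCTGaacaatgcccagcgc
Cpeb4 24-base microexon: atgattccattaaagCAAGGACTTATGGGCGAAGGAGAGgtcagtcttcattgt
Eif4g1 21-base microexon: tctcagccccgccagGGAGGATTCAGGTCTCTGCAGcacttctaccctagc
Each length is a multiple of 3. The Src microexon (chr2:157458843-157458860, plus strand) marks the neuronal form of this tyrosine kinase and is repressed by Ptbp1. It was included in 64.9% and 54.9% of the compared TPM in replicates 1 and 2 by the first program and in 69.2% and 61.2% by the second. The same transcripts set the complete coding forms of Src, so the share of the 541-residue form repeats this inclusion. It was 59.9% ± 7.1 (SD, n = 2) by the first program, with the rest in the 535-residue form.

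The Mef2d microexon (chr3:88161781-88161801, plus strand), in a transcription factor of muscle and brain, was included in 68.5% and 73.4% of the compared TPM in replicates 1 and 2 by the first program and in 69.9% and 73.2% by the second. Over expected reads, the Mef2d exon stood at 47.3%.

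The Cpeb4 microexon (chr11:31918801-31918824, plus strand), in a regulator of translation at synapses, depended on the program. It was included in 69.5% and 62.7% of the compared TPM in replicates 1 and 2 by the first program. By the second program it was included in 87.2% and 90.7%. The level compared was 7.52 and 6.04 TPM by the first program. All of the skipping was assigned to 1 transcript, Cpeb4-203, so the inclusion rests on the share given to that model. The Eif4g1 microexon (chr16:20674786-20674806, plus strand), in a translation initiation factor, was included in 51.2% and 51.2% by the first program and in 53.4% and 57.7% by the second. Over expected reads, the Eif4g1 exon stood at 67.9%. The transcripts compared were not only complete coding ones, whose TPM was 92.7% ± 1.1 (SD, n = 2) in the 1600-residue form by the first program. The remaining microexons lay at the ends of the range. The 24-base exon of Ank2 was included at 98.1% ± 0.4 and the 12-base exon of Ank3 at 10.4% ± 0.6 (SD, n = 2) by the first program.

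Other targets, chosen after their values were seen, are described by coding length. Gphn, the scaffold of inhibitory synapses, had 76.8% ± 4.8 of its complete coding TPM in the 772-residue form by the first program. The second program gave this form 74.7% ± 1.4, and the rest was in the 769-residue form. Grin1, the obligate NMDA receptor subunit, had 77.2% ± 0.8 in the 885-residue form and 19.8% ± 1.5 in the 922-residue form by the first program, with 9.69% ± 0.31 in the longer form by the second. Dab1, the Reelin signalling adaptor, had 40.7% ± 3.9 in the 555-residue form and 46.0% ± 0.8 in a 204-residue form by the first program. By the second program, these Dab1 forms had 29.7% ± 4.4 and 59.2% ± 3.0. Camk2d had 54.7% ± 0.9 in the 512-residue form by the first program and 67.6% ± 0.9 by the second (SD, n = 2 throughout). Rest, the repressor of neuronal genes that Srrm4 splices in other work, was the lowest target at 1.59 ± 0.21 TPM, and all of its complete coding TPM was in the 1082-residue form. Snap25, the synaptic vesicle fusion protein, was the highest at 1640 ± 180 TPM, and its splice forms share 1 length of 206 amino acids.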

How the data were processed

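Per the file headers, the gene tables that the authors deposited hold expected counts, TPM and FPKM per gene, in the column layout of RSEM. The deposited transcript tables of the first program hold the same units and a percent column, the share of a transcript in its gene, which was computed again here from TPM. The second program's deposited tables hold estimated counts and TPM, in the column layout of kallisto. The authors' bounds of TPM come from the first program. Build mm10 and annotation M21 are given in the text deposited beside the tables. The programs, their versions and any filters are not stated in the labels or headers used here. Another 26345 rows, numbered entries and spike-ins, held 9 and 6.49 reads in replicates 1 and 2, or 2.31e-05% and 1.64e-05% of all, and were kept out of the library sizes and every test. Of 55536 gene rows, 55450 matched the annotation.

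Expected counts were rounded. Libraries were scaled by TMM (edgeR 4.0.16, R 4.3.3) and compared with a two-sided exact conditional binomial test over genes with a mean count of at least 50, with a prior count of 0.5 in the ratios. Programs were compared on log2(TPM + 0.1) over genes with a mean of at least 1 TPM in either. Exon inclusion is the TPM of transcripts with an exon over that TPM plus the TPM of transcripts that skip it. A transcript counts as skipping where its intron spans the exon and shares a splice site with a neighbouring exon of an including transcript. Exons of the regulators needed 1 TPM. Steps used Python 3.11.15, scipy 1.17.1 and pandas 2.3.3 and were tested on simulated data. All 10 genes and each transcript with at least 5% in both libraries of either program were named. Ptbp1-206 and Srrm4-205 fall outside this rule and were named after their values were seen. Members, lists and rules were chosen with earlier results of these data known. The p-values and limits cover counting error only, since there were no replicates of a condition to estimate a spread against. Reads carry no molecular identifiers, so duplicate reads could not be removed by them. One target gene is not reported here, and of the other 15 only those with values in the text are described.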

Additional observations from a re-analysis of the deposited data

How the results depend on the processing

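The share of Rbfox1 and Rbfox3 in the summed level of the 10 regulators, 70.8%, was 69.4% by the second program and 65.1% by reads per kilobase of the longest transcript, an alternative added after the data were seen. It ran from 69.9% to 71.7% when either library was left out. No regulator was called between the libraries under any of the 8 other settings tried. None differed between the programs under the 3 other settings, of which the minimum of 5 TPM covered only 7 of the 10. At any size, 4 regulators had an adjusted p under 0.05. That number was 6 with library totals, 7 by the second program and 0 by exactTest with a dispersion of 0.01. It stayed at 4 under the other settings. Outside the main setting, no share of all genes was taken to set beside these numbers. The number of all genes called between the libraries, 339, became 739 with a mean count of at least 10, 909 with no count minimum and 1081 with a 1.5-fold threshold. The log2 ratio of Rbfox3, -0.01, turned to 0.0014 with library totals and to 0.0058 by the second program, neither past the threshold. Leaving out a library was not possible in that comparison. The median share of the leading transcript, 59.7%, became 73.9% over expected counts, 75.3% among protein-coding transcripts and, added after the data were seen, 75.1% among transcripts of at least 1000 bases, both without Elavl4, whose leading transcript is neither. It ran from 55.8% to 62.8% when either library was left out. The weight that TPM gives to short transcripts follows from its division by length. No paired analysis was possible because there is 1 group. Nova1, Srrm4 and Nova2 had the fewest reads of the 10, between 420 and 815 per library, which limits the precision of their transcript shares.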
